A study of Drosophila melanogaster with 3 samples.

Results

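The genes of the synaptic vesicle cycle, the active zone and transmitter loading were examined for binding of Ewg (erect wing), the Drosophila homologue of the vertebrate transcription factor NRF-1. The 40 members were a list of named genes, all 40 of which were found among the 13945 protein-coding genes of the annotation. The list covers 6 calcium sensors of release, 6 genes of the SNARE fusion machinery, 6 genes of the active zone and of priming, 9 genes of the vesicle pool and endocytosis, 6 genes of transmitter synthesis and loading, and 7 genes of synaptic adhesion, scaffolds and growth. Binding was mapped by chromatin immunoprecipitation (ChIP-seq) in whole Drosophila melanogaster embryos of 0 to 14 hours, males and females pooled, from the transgenic line ewg-GFP, in which GFP is fused to the C-terminal end of Ewg. There were 3 biological replicates in 1 group and no control sample. The antibody is named as ewg in one label, while the description of each sample gives an antibody against GFP. All 3 replicates come from the same line, and the promoter that drives the fusion is not given in the sources used here. Whole embryos mix neurons with all other tissues, so a weak peak may come from few cells or from low occupancy in many, and these cannot be told apart. Expression was not measured.

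Vesicles filled with transmitter are docked and primed at the active zone, fuse through the SNARE complex when calcium enters, and are retrieved by clathrin-dependent endocytosis. Synapsins hold the reserve of vesicles, and neurexins and neuroligins join the membranes across the cleft. Ewg is known in flies for its need in neurons and flight muscle, and NRF-1 in vertebrates binds a GC-rich palindrome at promoters.

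Of the 40 members, 25 (62.5%) had a peak of the authors' optimal set with its summit within 500 bp of a transcript start, called a promoter peak here. The share among all protein-coding genes was 26.4%. A peak elsewhere in the gene span was found in 13 members, against 9.69% of all genes, and 10 of these also had a promoter peak. That left Rim, EndoA and Vmat with an optimal peak in the gene span only. Another 9 members had no optimal peak and at least 1 region of the pooled permissive list, which is deposited as peaks together with background. These were Syt12, Sytalpha, Sytbeta, nSyb, stnA, stnB, Nlg1, Nlg2 and Nlg4, and 22.4% of all genes were in this class. Liprin-alpha, Cadps and lap had no region of either list, against 46.9% of all genes. Genes are not replicates, and no test was made on these counts.

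Synaptic genes are long and often have several starts, and both properties go with promoter peaks in the genome as a whole. The median span was 22.5 kb for the members and 2.17 kb for all genes. Of the 28 members spanning 10 kb or more, 17 had a promoter peak, beside 48.9% of all genes of that size. Of the 12 shorter members 8 did, beside 22.7%. With 1 start the count was 11 of 20 members, beside 20.1% of such genes, and with 2 or more starts it was 14 of 20, beside 43.8%. Reading only the outermost 5′ start of each gene, 20 members had a promoter peak, beside 23.7% of all genes. The members' share was above that of all genes in each of these strata, by the least among the long genes. Peaks elsewhere in the span, and genes with no region, were not counted by gene length. A longer span has more room for a region, so those shares are not matched for length.

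The cholinergic locus held the one exact NRF-1 palindrome found at a promoter peak of the members. VAChT, the transporter that fills vesicles with acetylcholine, and ChAT, the enzyme that makes acetylcholine, share a single annotated start on the plus strand of chromosome arm 3R at position 18705501 (dm6), and so share 1 promoter peak. The palindrome lies 96 bp upstream of that start and 20 bp from the summit. The 200 bases before the start, chr3R:18705301-18705500 on the plus strand, are shown from the RefSeq assembly of the same build, with the palindrome in capitals.
VAChT and ChAT: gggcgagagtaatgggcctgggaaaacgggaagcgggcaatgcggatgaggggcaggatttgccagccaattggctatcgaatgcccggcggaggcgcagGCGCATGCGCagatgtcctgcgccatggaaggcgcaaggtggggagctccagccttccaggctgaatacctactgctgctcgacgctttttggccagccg

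This shared peak had relative signals of 1.38, 2.99 and 1.74 in replicates 1, 2 and 3, with a mean of 2.04 ± 0.847 (SD, n = 3). Relative signal is the authors' signal of a peak divided by the median of that replicate over the 5852 optimal peaks measured in all 3, so a value of 1 is the median peak. All 3 values were above the median peak, and replicate 2 was the highest. The peak runs from 18705266 to 18705622 with its summit 76 bp upstream of the start. It ranked 956 of the 6793 optimal peaks. ChAT also held an intronic peak 14462 bp into the gene, at 1.31 ± 0.116 (SD, n = 3).

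Palindrome matches at other members are shown so that the matched words can be compared between genes of different roles. Each line gives 60 bases of the strand of the gene, with the match to the NRF-1 palindrome in capitals, allowing at most 1 mismatch. For VGlut, which had no such match, the capitals mark the core TGCGCA.
cpx, chr3R:4291621-4291680, plus strand, 88 bp upstream of an internal start: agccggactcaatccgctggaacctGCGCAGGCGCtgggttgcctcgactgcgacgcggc
cpx, chr3R:4281264-4281323, plus strand, 412 bp upstream of another internal start: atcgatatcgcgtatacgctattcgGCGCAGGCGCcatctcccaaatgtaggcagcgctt
Gad1, chr3L:4089032-4089091, minus strand, 317 bp upstream of the outermost start: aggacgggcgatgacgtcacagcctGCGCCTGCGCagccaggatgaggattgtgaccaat
Syt4, chr3R:7265994-7266053, plus strand, 42 bp upstream of the start: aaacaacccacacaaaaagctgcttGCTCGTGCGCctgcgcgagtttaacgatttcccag
Syn, chr3R:10190326-10190385, plus strand, 334 bp upstream of the start: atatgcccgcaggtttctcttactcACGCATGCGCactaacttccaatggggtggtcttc
Csp, chr3L:22267840-22267899, plus strand, 301 bp downstream of an internal start: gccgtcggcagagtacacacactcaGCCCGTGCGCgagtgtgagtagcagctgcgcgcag
Rim, chr3R:17902370-17902429, minus strand, 14179 bp downstream of the start, in an intron: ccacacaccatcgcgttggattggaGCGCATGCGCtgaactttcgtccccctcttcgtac
VGlut, chr2L:2400127-2400186, plus strand, 139 bp upstream of the outermost start: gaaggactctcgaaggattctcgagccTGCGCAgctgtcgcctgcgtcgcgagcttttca

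The word GCGCAGGCGC, or its reverse complement GCGCCTGCGC, lay within 100 bp of the summit of 7 of the 52 distinct member peaks, beside 2.16% of all optimal peaks. It was found at both cpx promoter peaks, at Gad1, at the peak of VAChT and ChAT, at Syt4, in an intron of Rim and in a coding exon of EndoA. At VAChT and ChAT and at Syt4 it overlaps the capitalised match. This word was singled out after the sequences had been read.

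The 25 members with a promoter peak held 30 distinct promoter summits, in 26 intervals. Of the 30, 25 were measured in the lists of all 3 replicates. A summit was present among the 6793 strongest regions of every replicate for 23 of the 30, beside 63.9% of all promoter peaks. The median relative signal of the 25 measured peaks was 2.25, and that of all 2740 measured promoter peaks was 1.15. By replicate the members' median was 1.95, 2.71 and 1.97, and that of all promoter peaks 1.15, 1.16 and 1.12. The 1698 strongest peaks of the optimal set included 22 of the 30 (73.3%), beside 31.3% of all promoter peaks. The median position of the summits was 83.5 bp upstream of the nearest start for the members and 84 bp upstream for all promoter peaks.

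**Figure D1:**
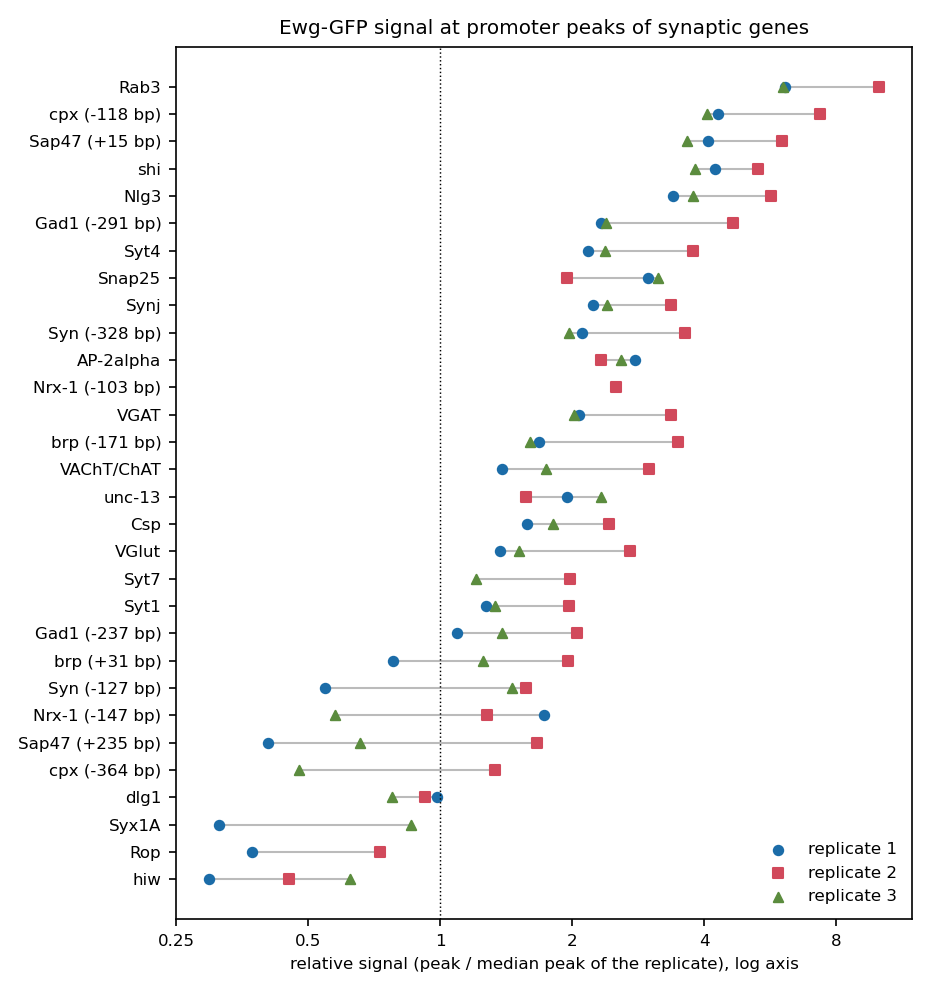
Relative signal of each promoter peak of the synaptic genes (log axis), with 1 symbol per replicate and a grey line from the lowest to the highest; genes with 2 peaks give the summit position relative to the nearest start of the gene, and the dotted line at 1 is the median peak. Rab3 is the highest in all 3 replicates, and peaks with fewer symbols were not measured in every replicate.

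Among the calcium sensors, 3 of 6 had a promoter peak. For this role and each role below, the share of all genes was 26.4%. Among all genes spanning 10 kb or more it was 48.9%. Counts by role are small, were not matched for gene length and were not tested. Syt4, a synaptotagmin of vesicles on the postsynaptic side of the fly neuromuscular junction, had relative signals of 2.17, 3.77 and 2.37 in replicates 1, 2 and 3 (2.77 ± 0.873, SD, n = 3). Its summit lay 91 bp upstream of Syt4 and 271 bp from the start of Gld, which is transcribed the other way, so the peak may belong to either gene. Syt1, the sensor of fast synchronous release, reached 1.27, 1.97 and 1.33, with the summit 431 bp upstream of the outermost start. It also held 2 intronic peaks, at 0.672 ± 0.441 and 0.607 ± 0.0488 (SD, n = 3). Syt7, a sensor of slower release in vertebrates, had a peak 50 bp upstream of an internal start. It was measured in replicate 2 at 1.98 and in replicate 3 at 1.21, and not in replicate 1. Every measured Syt4, Syt1 and Syt7 promoter value was above the median peak.

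The other sensors stayed below the optimal set. Sytbeta had a region 192 bp upstream of a start that ranked 9832 of 30000 in the pooled list and occurred in all 3 replicate lists. The Sytalpha regions ranked 23908 and 28000, with 1 and 0 replicates holding them. Syt12 had 1 region of rank 24450, in none of the replicate lists.

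Of the SNARE machinery 5 of 6 members had a promoter peak, and they covered almost the whole range of signal. cpx encodes complexin, which binds the assembled SNARE complex and restrains spontaneous fusion. Its strongest peak, from 4291318 to 4291979 on 3R, measured 4.29, 7.33 and 4.05 (5.22 ± 1.83, SD, n = 3) and ranked 124. The summit was 118 bp upstream of an internal start. A second cpx peak, 364 bp upstream of another internal start, ranked 3687, and was measured at 1.33 in replicate 2 and 0.477 in replicate 3 only. Neither peak lay at the outermost start, although cpx has 8 annotated starts.

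Snap25, the plasma membrane SNARE, measured 2.98, 1.95 and 3.13 (2.68 ± 0.644, SD, n = 3), with the summit 51 bp upstream of its single start. Replicate 2 was the lowest there, unlike at most members. Csp, a co-chaperone of the vesicle surface, measured 1.58, 2.43 and 1.81 at a summit 295 bp downstream of an internal start. Syx1A, the syntaxin of the presynaptic membrane, and Rop, the Sec1/Munc18 homologue that binds it, were near the lower end of the optimal set. Their peaks ranked 6094 and 6466. Syx1A was measured at 0.314 in replicate 1 and 0.86 in replicate 3, and Rop at 0.372 in replicate 1 and 0.73 in replicate 2. The summit at Rop is 54 bp from Rop and 26 bp from Ras64B, a divergent neighbour. nSyb, the vesicle SNARE, had 2 permissive regions in the gene span, the stronger at rank 11070 and 518 bp from a start.

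Of the 6 active zone members 3 had a promoter peak, 1 had optimal peaks in its span only and 2 had no region. Rab3, the small GTPase of synaptic vesicles, carried the strongest peak of all 40 members, from 10729065 to 10729562 on chromosome arm 2R. It measured 6.12, 9.98 and 6.06 (7.39 ± 2.25, SD, n = 3), ranked 41 of 6793, and had its summit 109 bp upstream of its only start. Its lowest replicate value was above the highest values of all other members except cpx, whose replicate 2 reached 7.33. brp encodes Bruchpilot, the ELKS-related protein of the T-bar. It had 2 summits in 1 interval at its outermost start, one 171 bp upstream at 1.68, 3.49 and 1.60, and one 31 bp downstream at 0.779, 1.96 and 1.25. An intronic brp peak 2612 bp from the start added 1.46 ± 0.746 (SD, n = 3). unc-13, the priming factor, measured 1.95, 1.57 and 2.32, at a summit 27 bp downstream of an internal start.

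Rim, an active zone scaffold that binds Rab3, had no optimal peak within 500 bp of its start and 4 in its introns. The strongest of them, at the exact palindrome shown above, ranked 702 and measured 2.32, 3.61 and 1.58 (2.5 ± 1.03, SD, n = 3). The other Rim peaks had means of 0.952, 0.589 and 0.536. At the Rim start itself the pooled permissive list held regions of ranks 9307 and 12186, found in 1 and 2 replicate lists. Liprin-alpha, which organises active zone assembly, and Cadps, a priming factor of dense-core vesicles, had no region in their spans. Their nearest optimal summits were 18729 and 84221 bp from their starts.

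**Figure D2:**
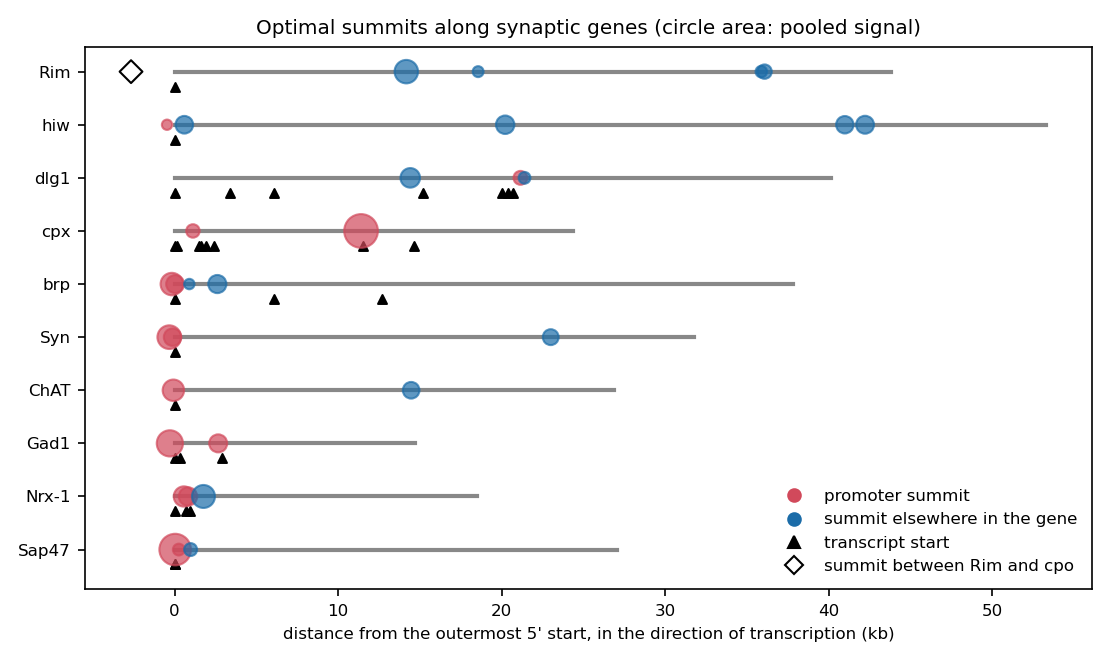
Optimal summits (circles, area proportional to pooled signal) along 10 members, drawn from the outermost 5′ start in the direction of transcription (kb); grey lines are gene spans, triangles are transcript starts and the open diamond is a summit upstream of Rim that is described with the results beyond 500 bp. Rim and hiw have most of their signal inside the gene, cpx has its strongest peak at an internal start, and brp, Syn, ChAT, Gad1 and Sap47 have theirs at or next to the outermost start.

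In the vesicle pool and endocytosis group 5 of 9 members had a promoter peak. Sap47, a synapse-associated protein of vesicles, measured 4.08, 6.0 and 3.66 (4.58 ± 1.25, SD, n = 3) at a summit 15 bp from a start. A second summit of the same interval, 235 bp downstream, was much weaker at 0.405, 1.66 and 0.656. shi, which encodes dynamin, the GTPase that cuts vesicles from the membrane, measured 4.22, 5.31 and 3.81 (4.45 ± 0.777, SD, n = 3). The 3 values lay close together, and the summit was 68 bp upstream of the outermost start. Neither NRF-1 motif was found within 100 bp of the shi promoter summit.

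Syn encodes synapsin, which tethers vesicles in the reserve pool. Its stronger summit, 328 bp upstream of the start and 6 bp from the palindrome match shown above, measured 2.11, 3.61 and 1.97 (2.56 ± 0.911, SD, n = 3). Its weaker summit in the same interval, 127 bp upstream, measured 0.547, 1.57 and 1.46. Synj, the phosphoinositide phosphatase that helps uncoat vesicles, measured 2.23, 3.36 and 2.40 (2.66 ± 0.609, SD, n = 3). AP-2alpha, a subunit of the clathrin adaptor, measured 2.78, 2.33 and 2.58 (2.56 ± 0.227, SD, n = 3), with the smallest SD of the 12 strongest members. Its summit lay 167 bp from AP-2alpha and 123 bp from the divergent gene ebi.

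EndoA, the endophilin that curves the membrane during retrieval, had 1 weak peak in a coding exon, 957 bp from its start, at 0.498, 0.682 and 0.537. lap, the AP180 homologue of clathrin assembly, had no region. stnA and stnB, the products of the dicistronic stoned locus, have the same annotated span and start and count as 2 members of 1 locus. Their only region inside the gene ranked 29584 of 30000.

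Among the 6 members of transmitter synthesis and loading, 5 had a promoter peak, beside 26.4% of all genes. VAChT and ChAT count by the same peak. Gad1, which makes GABA, had peaks at its outermost start and at an internal start. The outer peak measured 2.33, 4.66 and 2.39 (3.13 ± 1.33, SD, n = 3) and the inner one 1.09, 2.05 and 1.38 (1.51 ± 0.491, SD, n = 3). The outer peak was the higher in each of the 3 replicates, by 1.10, 1.19 and 0.79 on the log2 scale, with a mean of 1.03 ± 0.21 (SD, n = 3). The exact two-sided sign-flip permutation test gave p = 0.25, the smallest value that 3 replicates allow. Gad1 was the only member with measured peaks at both kinds of start. The outer summit is 291 bp from Gad1 and 96 bp from CG14989, which starts on the other strand.

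VGAT, the vesicular GABA transporter, measured 2.07, 3.36 and 2.02 (2.48 ± 0.763, SD, n = 3), 30 bp upstream of its start. VGlut, the vesicular glutamate transporter, measured 1.37, 2.71 and 1.51 (1.87 ± 0.738, SD, n = 3), 106 bp upstream of the outermost start. With the peak of VAChT and ChAT, promoter peaks were thus found at the loading transporters for glutamate, GABA and acetylcholine, each highest in replicate 2. Vmat, the transporter of monoamines, had only an intronic peak of rank 6788, 891 bp from an internal start and measured at 0.617 in replicate 1 and 0.60 in replicate 3. A permissive region 66 bp from a Vmat start ranked 8049 in the pooled list and was found in all 3 replicate lists.

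Of the adhesion, scaffold and growth genes, 4 of 7 had a promoter peak. Nlg3, a neuroligin, measured 3.40, 5.68 and 3.76 (4.28 ± 1.23, SD, n = 3) at a summit 140 bp upstream of its start. The other neuroligins had no optimal peak. Nlg4 came nearest, with a region 16 bp upstream of its start that ranked 7895 in the pooled list and was found in all 3 replicate lists. Nlg2 had a region of rank 9529 at 157 bp, also in all 3, and the strongest region of Nlg1 ranked 15310. Of the 9 members with permissive regions only, Sytbeta, Nlg2 and Nlg4 were the ones with a region in every replicate list. The share of all genes meeting this requirement was not computed.

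Nrx-1, the neurexin that binds neuroligins, had 2 summits in 1 interval at internal starts. One was measured only in replicate 2, at 2.51, and the other gave 1.72, 1.28 and 0.576. A stronger summit 797 bp from an internal start measured 1.53, 3.40 and 2.20 (2.38 ± 0.95, SD, n = 3). dlg1, the PSD-95 family scaffold, measured 0.982, 0.925 and 0.778 at a summit 438 bp from an internal start, and its intronic peak of rank 1301 was stronger at 1.70 ± 0.82 (SD, n = 3). hiw encodes a ubiquitin ligase that restrains synaptic growth. Its promoter peak was weak at 0.298, 0.453 and 0.623, with the summit 464 bp from hiw and 26 bp from ND-B18. The 4 intronic hiw peaks had higher means, from 1.39 to 1.53.

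**Figure D3:**
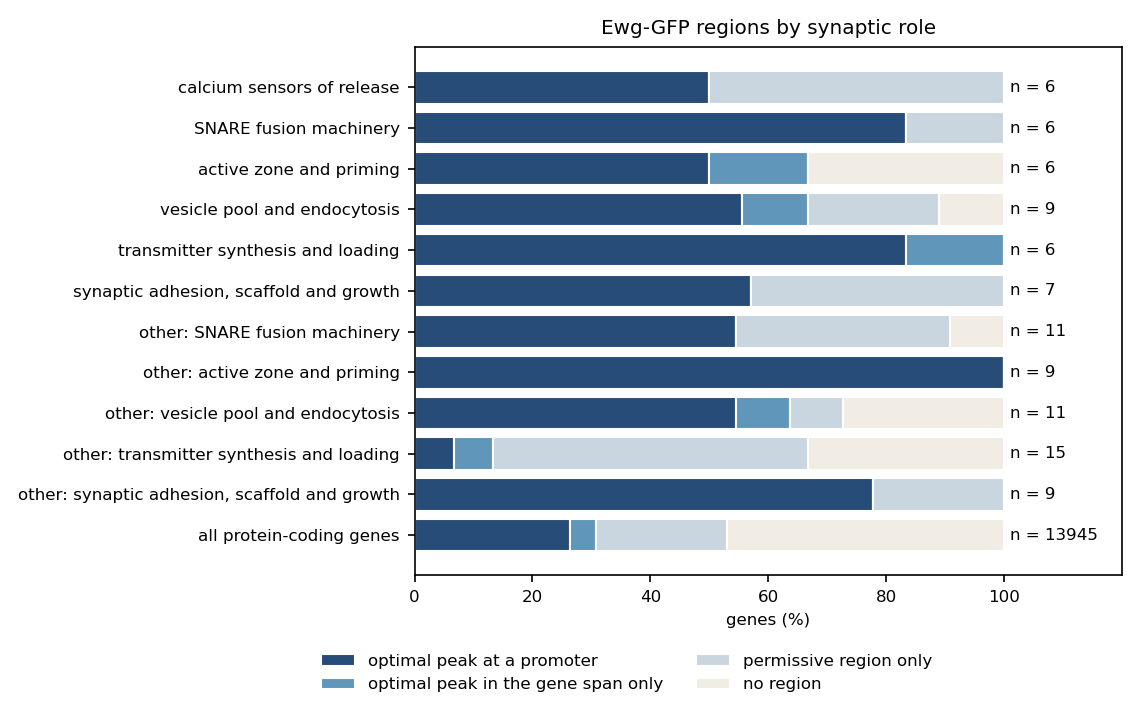
Share of genes (%) with an optimal promoter peak, an optimal peak in the span only, a permissive region only or no region, for the 6 roles of the members, for 5 groups of other synaptic genes marked "other", and for all 13945 protein-coding genes; n is the number of genes. The transmitter genes differ most between the lists, with 5 of 6 members and 1 of 15 other genes having a promoter peak. The 5 include VAChT and ChAT, which share 1 peak, and both lists were drawn with earlier results of these data known.

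Over all members, 22 distinct optimal peaks lay in gene spans away from starts. The 20 measured in all replicates had a median relative signal of 1.15, against 0.893 for the 3112 measured optimal peaks that are not promoter peaks. Of the 22, 6 were among the 1698 strongest optimal peaks, beside 19.1% of all optimal peaks that are not promoter peaks. The members just inside the 500 bp limit were dlg1 at 438 bp and hiw at 464 bp, and those just outside were stnA and stnB at 618 bp and Vmat at 891 bp.

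Beyond that limit, 2 strong optimal peaks lay upstream of members, and they were picked out after their values were seen. One ranked 10 of all 6793, from 17919014 to 17919510 on 3R, and measured 10.8, 11.8 and 9.06 (10.5 ± 1.38, SD, n = 3). It lies between Rim, whose start is 2665 bp away, and cpo, whose start is 589 bp away, and contains TGCGCA. The peak is closer to cpo and was not counted for Rim. The other ranked 435, from 23005068 to 23005482 on X, and measured 3.26, 3.70 and 3.10 (3.35 ± 0.31, SD, n = 3). It lies 618 bp upstream of the shared start of stnA and stnB, and the next protein-coding start, of FucTC, is 6037 bp away.

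Motif matches were counted within 100 bp of each summit, on both strands. The core TGCGCA reads the same on both strands and can overlap a palindrome match. It was found at 11 of the 30 promoter peaks of the members, 36.7% (95% exact interval 19.9 to 56.1%), beside 17.0% of all promoter peaks. Among the 1698 strongest peaks it was found at 11 of the 22 member promoter peaks, beside 26.0% of all promoter peaks of that strength. The 11 peaks with the core had ranks from 41 to 1665, with a median of 724, and the 19 without it had a median of 1561. Ranks with and without the core are given for the members only. The core was a median of 23.5 bp from the members' summits, beside 29.5 bp at the 556 promoter peaks of all genes that contain it.

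The NRF-1 palindrome with at most 1 mismatch was found at 9 of the 30 (interval 14.7 to 49.4%), beside 9.92% of all promoter peaks. The exact palindrome was found at 1, the peak of VAChT and ChAT, beside 1.31%. Either the core or the palindrome was found at 16 of the 30, beside 22.8%. The interval of that share was 34.3 to 71.7%. DRE, the letters TATCGATA, was at 1 of the 30, the Rop peak, beside 6.77%. GAGAGA was at 5 of the 30, beside 15.2%. A match says only that the letters are present, and the intervals cover the counting of peaks only.

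**Figure D4:**
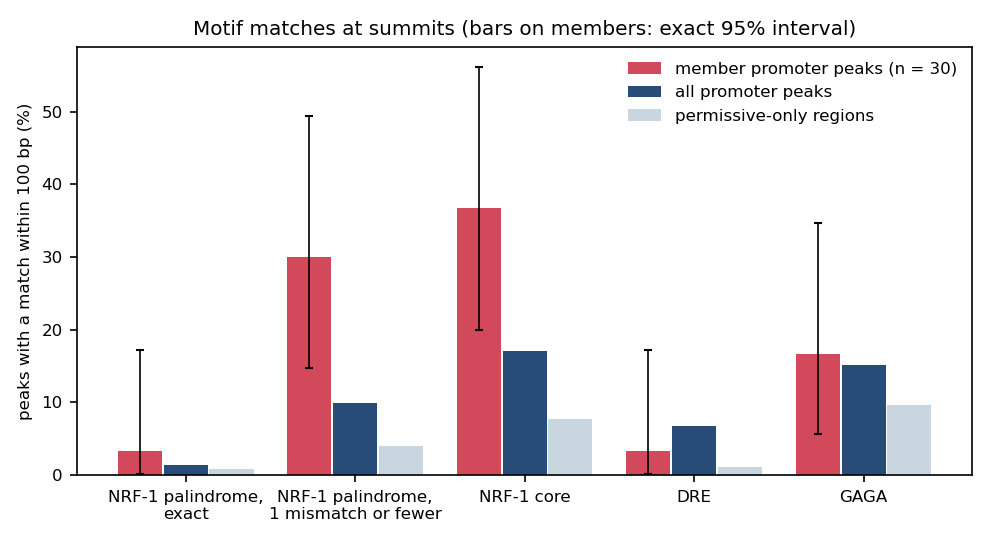
Share of peaks (%) with a motif match within 100 bp of the summit, for the 30 member promoter peaks with exact 95% intervals, for all 3277 promoter peaks, and for the 21973 pooled permissive regions that overlap no optimal peak. The members' share was 30% for the palindrome with at most 1 mismatch, beside 9.92%, and 36.7% for the NRF-1 core, beside 17.0%. The intervals for the exact palindrome, the DRE and the GAGA motif include the share of all promoter peaks. Peaks are not replicates and some lie at the same gene, so the intervals are no test of enrichment.

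Replicate 2 stood apart at these genes. Of the 25 member promoter peaks measured in all replicates, 19 had their highest relative signal in replicate 2, beside 44.3% of all promoter peaks. Among the 1698 strongest peaks the count was 16 of 20, beside 49.4%. The pattern was more frequent with the motifs but was not confined to them. Of the 14 member peaks with the core or the palindrome 13 were highest in replicate 2, beside 78.8% of all promoter peaks with either, and of the 11 without them 6 were, beside 33.3%. The exception among the 14 was AP-2alpha. Of the 20 measured member peaks elsewhere in gene spans, 13 were highest in replicate 2. The share among all measured optimal peaks that are not promoter peaks was 35.4%. Rab3 without replicate 2 would stand at 6.12 and 6.06, still the highest of the members in both. What sets replicate 2 apart was not tested.

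**Figure D5:**
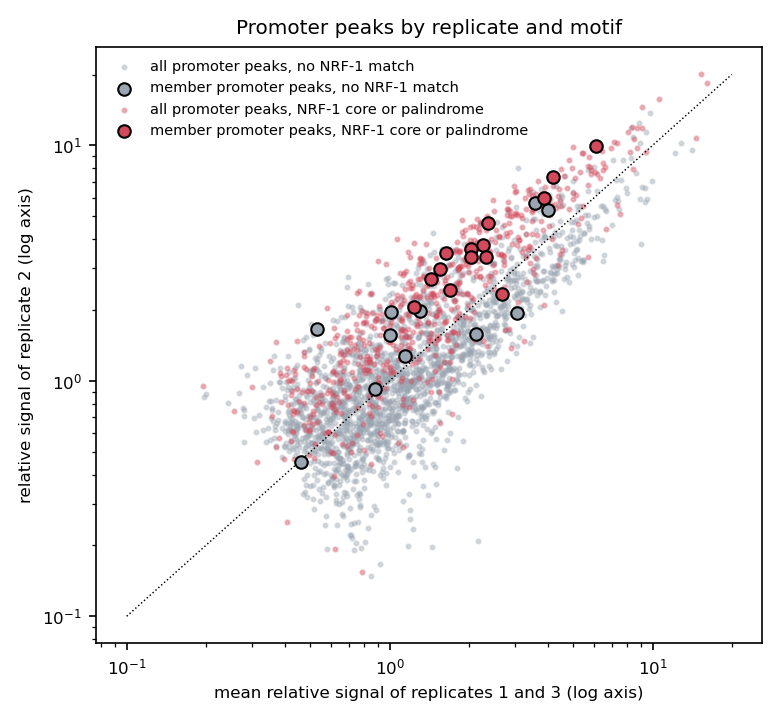
Relative signal in replicate 2 against the mean of replicates 1 and 3 (both axes log) for the 2740 promoter peaks measured in all replicates, coloured by the presence of the NRF-1 core or palindrome, with the 25 member promoter peaks outlined in black; the dotted line marks equal values. Of the 14 outlined peaks with a motif, 13 have their highest value in replicate 2.

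A second list of 55 synaptic genes outside the 40 was read in the same way. Of these, 29 had a promoter peak, beside 26.4% of all genes and 48.9% of all genes spanning 10 kb or more. Neither this list nor its roles were split by gene length. All 9 other active zone genes had a promoter peak, beside 3 of the 6 members of that role. Both lists were drawn with earlier results of these data known, so these counts are no test of a difference. The 9 included stj, the alpha2delta subunit of the presynaptic calcium channel. The stj peak ranked 8 of all optimal peaks and measured 8.89, 14.6 and 9.35 (11.0 ± 3.18, SD, n = 3), above Rab3. cac, the pore-forming subunit of that channel, measured 4.33 ± 1.63 and Ca-beta, its beta subunit, 3.35 ± 1.09 (SD, n = 3).

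In the other roles the counts were 6 of 11 for the SNARE machinery, led by comt at 2.40, Syngr at 2.21 and Rab27 at 1.34, and 6 of 11 for endocytosis, led by nwk at 1.95, aux at 1.49 and tweek at 0.923. It was 7 of 9 for adhesion, scaffold and growth genes. The strongest of these was wnd, the kinase that hiw restrains, at 6.07 ± 2.23 (SD, n = 3), followed by Ten-m at 3.45 and Fsn, a partner of hiw, at 2.10.

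Transmitter genes outside the members were nearly all without promoter peaks, with 1 of 15 beside 26.4% of all genes. The exception was the choline transporter ChT, at 0.537 ± 0.191 (SD, n = 3). The dopamine enzymes ple and Ddc, the serotonin enzyme Trhn, the octopamine enzymes Tdc2 and Tbh, the histamine enzyme Hdc, and the carriers DAT, SerT and prt had none. Neither did Gat, Eaat1, Ace, Gabat or Gs2, which take up, break down or convert transmitters. Below the threshold of the optimal set, the pooled permissive list held promoter regions at Tbh, of rank 9284, at Hdc, of rank 9532, and at DAT, of rank 9758, as it did at Vmat. With SerT at rank 19501 and Trhn at 22316 the regions were weaker. Ddc, Tdc2, prt, Gat and Eaat1 had no region of either list. For ple no permissive region lay at a promoter, and Gs2 had an optimal peak in its span only. Tbh, Hdc, DAT, SerT and Trhn thus differ from Gad1, VGAT, VGlut, VAChT and ChAT in lying below that threshold. For these, lying below it does not mean that no region was found. The permissive list also holds background, so whether these regions are binding is not known. The embryos were collected at 0 to 14 hours, and how many cells of each transmitter type they held was not measured.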

How the data were processed

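The authors deposited peak lists on dm6 and dm3, of which the dm6 lists were used: 1 permissive list of 30000 regions for each of 3 replicates, 1 pooled list, and an optimal set of 6793 peaks thresholded by irreproducible discovery rate. The signal per peak is the authors' deposited value, and its scale differs between lists. The median signal over the 5852 peaks with a summit within 100 bp in all 3 replicate lists was 81.4, 124 and 84.1, and each replicate was divided by its own. No aligner or peak caller is named in the sources used here. Read depth is unknown. The chromatin was sonicated to 200 to 800 bp, which limits how well nearby summits are separated. Genes came from Ensembl release 115 and sequence from RefSeq, both of the dm6 build. A peak near the starts of several genes counts for each of them, and non-coding genes were not used.

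The NRF-1 palindrome has 10 letters, with C or T at its sixth position. Every member is named. The 12 strongest members and those with peaks at several starts are described in full, and up to 3 bound genes are named per role of the second list. Members, lists and rules were chosen with earlier results of these data known. Functions were checked on simulated summits and motifs. Calculations used matplotlib 3.10.9, scipy 1.17.1, pandas 2.3.3 and numpy 2.4.6 in Python 3.11.15.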

Additional observations from a re-analysis of the deposited data

How the results depend on the processing

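The counts and medians were recomputed under 45 alternatives, of which 7 were classed as moved and 38 as the same. These classes do not show whether the members stayed above all genes or all promoter peaks. Shares of all genes or peaks under the same setting are given in brackets where they were computed. The number of members with a promoter peak ranged from 20 with 1 start per gene (23.7%) to 29 with a window of 1000 bp (30%), which adds EndoA, stnA, stnB and Vmat. Leaving out a replicate gave 21 to 22 (19.6 to 20.5%), without Syx1A, Rop and hiw in each case and without Syt7 when replicate 2 or 3 was left out. Counting only the gene nearest to each summit gave 22 (20.5%), without Rop, AP-2alpha and hiw. Members with a peak elsewhere in the span fell from 13 (9.69%) to 8 with a window of 1000 bp (7.74%) and to 8 (5.78%) when only the stronger part of the optimal set, above its median signal, was read. The latter also took the 55 other genes from 29 (26.4%) to 19 (15.8%). Members with a permissive region only fell from 9 to 3 when a region was required in all 3 replicate lists. For that setting the share of all genes was not computed, so the fall has no comparison. Member promoter peaks present in all replicates fell from 23 of 30 (63.9%) to 12 of 30 with a reciprocal overlap of 50%. That is below the share of all promoter peaks, 45.4%. With no rank limit the count was 25 of 30, beside 83.6%, so the members were not above all promoter peaks there either. As a percentile of the signal rank in each replicate, the members' median was 96.0, beside 90.4. The exact palindrome was at 1 peak in place of 9. For the core TGCGCA, alternatives added after seeing the data gave 10 peaks within 50 bp (12%), 16 within 250 bp (25.8%) and 10 to 11 without a replicate (18.6 to 19.7%). The median relative signal was 2.04 without replicate 2 and 2.46 without either other replicate. Without 1 replicate each, the Gad1 log2 difference was 0.94 to 1.14, and on ranks in each replicate list it was 1.74 in place of 1.03. No count depth is known, so no limit from depth can be given.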
